A study of Mus musculus with 4 samples.

Results

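The 43 genes described here encode proteins of the lysosome and of autophagy, the route by which cells enclose their own contents in a double membrane and deliver them to the lysosome. They were chosen by name and placed by symbol: a row of the array stood for a gene where the platform annotation gave it exactly 1 symbol equal to that of the gene, and where a gene had several rows the one with the highest mean was used. All 43 had a row, among 19938 genes measured in all. RNA was measured on Affymetrix mouse arrays in 4 samples of lung fibroblasts, which had grown out of digested lung tissue of mice aged 3 to 4 weeks and received no treatment. The growth protocol states that the purity of the myofibroblast cultures was checked by immunofluorescence. Samples KrasD12 A and B came from a line of the genotype labelled KrasD12, and a wild-type line gave samples WT A and B. Each genotype was represented by 1 line number, so that genotype and line cannot be told apart. The labels do not give what drives the allele, and do not say whether A and B were separate cultures. The p-values below therefore measure only the spread between A and B, which may be technical.

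Lysosomes are acidic organelles in which proteases, glycosidases and lipases break down proteins, sugars and lipids brought in by endocytosis and autophagy. The cathepsins are the best known of the proteases, and in fibroblasts they also act on collagen, both inside the lysosome and after secretion. Transcription factors of the MiT/TFE family, held in the cytoplasm by the kinase complex mTORC1 when nutrients are plentiful, bind an E-box in the promoters of many of these genes when released into the nucleus.

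The deposited values are log2 expression values, and the columns of the 2 groups differed in overall level. The column medians over all 28944 rows were 6.24 and 6.26 in KrasD12 A and B, against 5.90 and 5.91 in WT A and B. The median difference of all genes, KrasD12 minus WT, was 0.26, and it ran from 0.39 for genes with a mean of 5 to 6 down to -0.145 for genes with a mean of 11 to 12. A gene is therefore said to have risen or fallen only where limma called it with 1 sign under 2 scalings, the deposited values as they stand and the 4 columns made equal by quantile normalization, which brought the median difference of all genes to -0.00375, at a Benjamini-Hochberg adjusted p under 0.05 over all genes on each. Differences are KrasD12 minus WT on the deposited log2 scale unless the quantile value is named, and each ± is limma's moderated SE with n = 2 per group. A mean of 5.15, the level under which 95% of 1205 olfactory and vomeronasal receptor rows lay, is called the dim level. Of the 43 genes, 42 had a mean above it, and the exception was Ctss. The arrays held RNA of whole cultures, in which fewer cells of a type and less RNA per cell cannot be told apart.

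In the main fit, all 9 members that rose were lysosomal genes, and the 2 that fell were a transcription factor and a gene of autophagy initiation. On both scalings 9 of the 43 genes rose (20.9%, against 22.4% of all genes and 24.5% of the 13824 genes above the dim level), 2 fell (4.65%, against 11.5% and 15.1%) and 32 were not called on both. The genes that rose were Ctsf, Mcoln1, Neu1, Ctsk, Ctsc, Ctsl, Ctsa, Grn and Tpp1, and the genes that fell were Mitf and Becn1. Among the 24 lysosomal genes 9 rose and 0 fell, and among the 16 autophagy genes 0 rose and 1 fell. The share of the 43 genes that rose was thus close to that of all genes, and the difference between the lysosomal and the autophagy genes was not tested. That difference also moved with the fit. With a variance trend in eBayes the autophagy genes Sqstm1, Map1lc3b, Ulk1 and Wipi1 also rose, beside the lysosomal Cd63 and Hexa. The lysosomal Ctsd and Ctsz and the autophagy gene Gabarapl2 also fell there. With only genes above the dim level fitted, Cd63, Sqstm1 and Ulk1 also rose and Ctsd also fell. On the deposited scale no member reached a 2-fold difference, and Ctsf had the largest at 1.94-fold, whereas after quantile normalization Mitf had the largest, a fall of 1.05 on the log2 scale.

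On the deposited values alone 13 members were called higher and 4 lower, where 50.1% of all genes were higher and 11.9% lower. After quantile normalization alone 12 were higher and 3 lower, where the shares of all genes were 22.5% and 24.4%. The 43 genes had a median difference of 0.085 as deposited and of 0.05 (0.0487) once quantile normalized. The median of the lysosomal genes was 0.16 (0.1575), or 0.195 above genes of the same unit of mean level, and that of the autophagy genes was 0.0875, or -0.035 against genes of like mean. Without KrasD12 A or KrasD12 B 4 members rose, Ctsf, Ctsl, Neu1 and Mcoln1 in both cases, and 0 fell. Without WT A or WT B limma called 0 of all 19938 genes on the deposited values, with 9846 and 10022 at an unadjusted p under 0.05, so that 0 members were called on both scalings. After quantile normalization the same fits did call genes. Of the members, Ctsa, Ctsf, Ctsk, Ctsl, Neu1 and Mcoln1 were among them as higher and Mitf as lower, whichever WT sample was left out. On the deposited values Mcoln1 differed there by 0.91 and 0.93, and Mitf by -0.63 and -0.75. With each column centred on its median in place of the deposited values, which lowers every difference by the same amount, 4 members rose (Ctsf, Ctsk, Neu1 and Mcoln1) and 3 fell (Mitf, Becn1 and Atg4b).

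**Figure D1:**
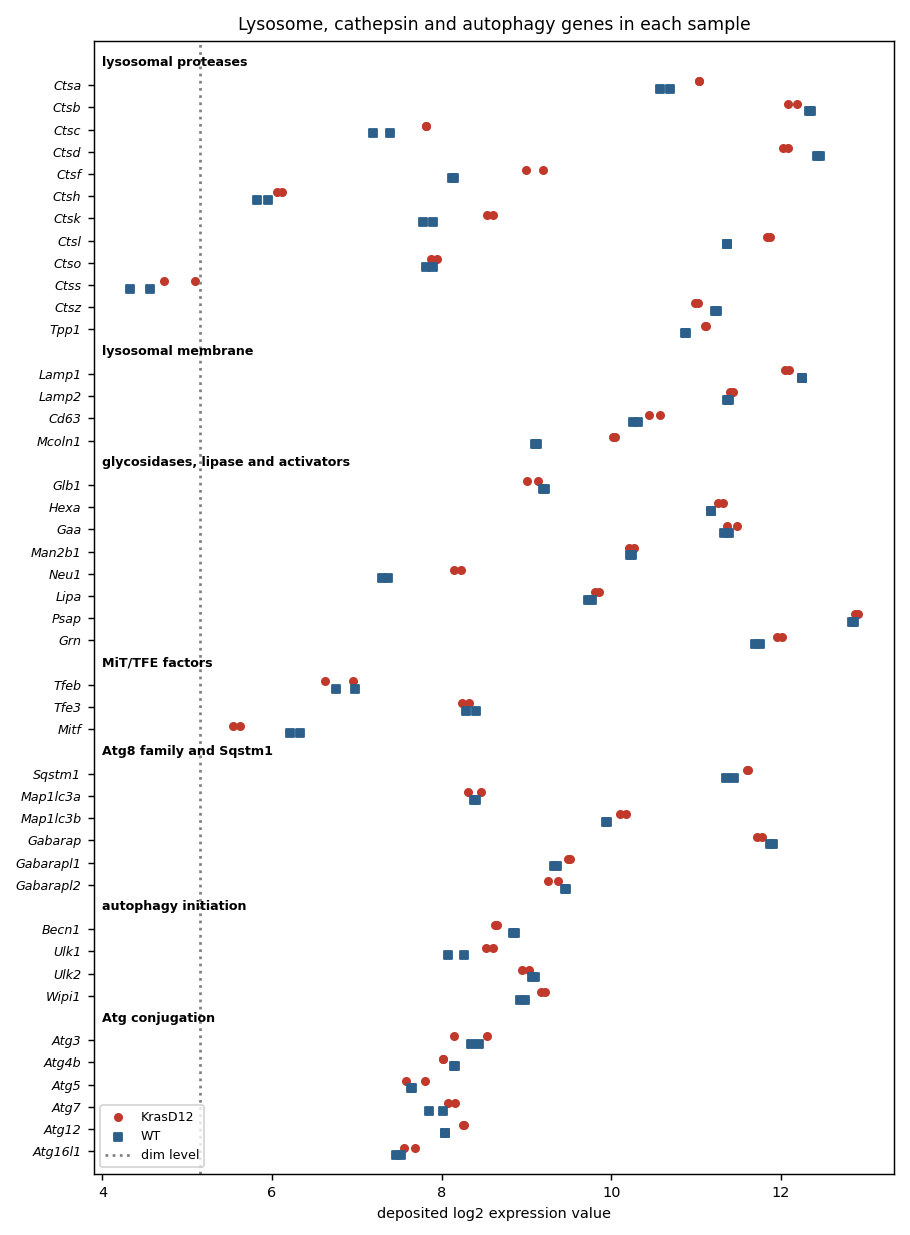
Deposited log2 values (horizontal axis) of the 43 genes, grouped by role, in KrasD12 A and B (red circles) and WT A and B (blue squares), with the dim level as a dotted line. The pairs of Ctsf, Mcoln1, Neu1 and Ctsk in KrasD12 lie clear to the right of those in WT, those of Mitf lie to the left, and the pairs of most autophagy genes lie close together.

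**Figure D2:**
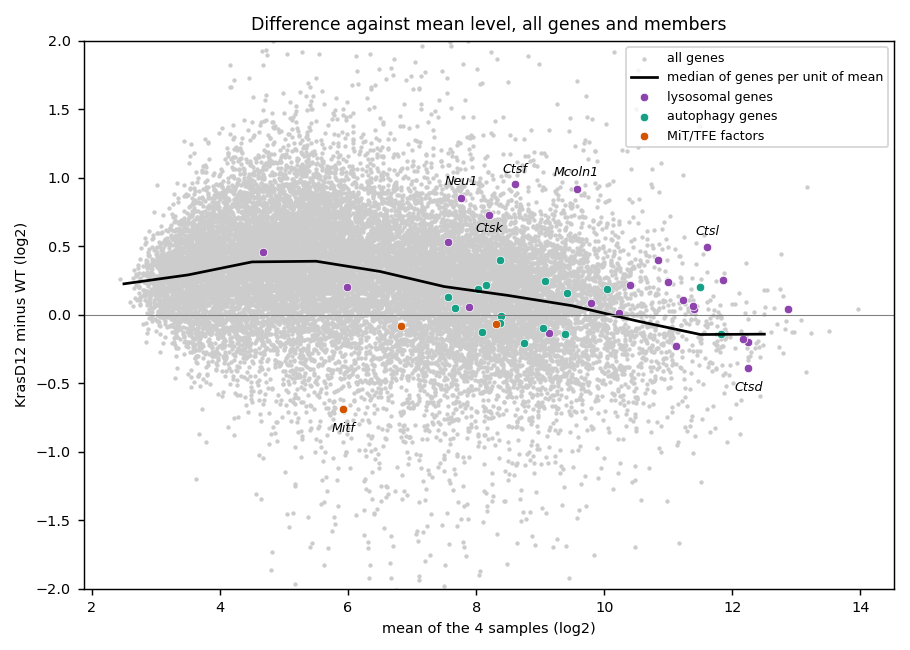
Difference KrasD12 minus WT (log2, vertical axis) against the mean of the 4 samples (log2, horizontal axis) for all genes in grey, lysosomal genes in purple, autophagy genes in green and the MiT/TFE factors in orange. The black line is the median of all genes per unit of mean level, drawn for units with at least 50 genes, and it falls below 0 for bright genes, where many lysosomal genes lie. Genes beyond a difference of 2 in either direction lie outside the frame.

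Of the 3 MiT/TFE factors, the regulators of lysosomal gene transcription, 1 fell (33.3%, against 11.5% of all genes) and 0 rose (against 22.4%). Mitf, best known as the factor of melanocytes and osteoclasts, had 5.54 and 5.62 in KrasD12 A and B, against 6.33 and 6.21 in WT A and B. The groups did not overlap, and Mitf fell by 0.69 ± 0.08 (limma adjusted p = 0.00166), or by 1.05 after quantile normalization. A further row of Mitf lay under the dim level in all samples, at 2.97 and 2.84 in KrasD12 and 2.95 and 2.91 in WT, where the groups differed by less than their spread. Tfeb, a main activator of lysosomal genes, had 6.62 and 6.95 in KrasD12 against 6.76 and 6.98 in WT. The groups overlapped (difference -0.09 (-0.085) ± 0.14, adjusted p = 0.612), and the value of KrasD12 A alone was lower than both WT values. After quantile normalization the difference of Tfeb was -0.37 (limma adjusted p = 0.0556), which did not pass. Tfe3, which acts alongside Tfeb, had 8.24 and 8.32 in KrasD12 against 8.40 and 8.29 in WT, again overlapping (difference -0.065 ± 0.08, adjusted p = 0.487). Its quantile value of -0.21 did not pass either (limma adjusted p = 0.0786). Activity of these factors depends on their place in the cell, which was not measured.

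The letters of the E-box were looked for in the promoter windows of the members, because these windows are where the lysosomal genes share a known regulatory element. RefSeq windows of 300 bases (build GRCm38.p6, 250 before to 50 after the start of transcription) were found for 37 of the 43 genes. The 6-letter core CACGTG, which reads the same on both strands, stood in the windows of 11 of the 37 genes (29.7%), against 2187 of 27025 genes in the whole table (8.09%). The 8-letter form TCACGTGA, also its own reverse complement and containing the core, stood in 4 of the 37 (10.8%), against 304 of the 27025 (1.12%). Of the 9 genes that rose 4 held the core (Ctsa, Mcoln1, Ctsf and Ctsl), of the 28 others with a window 7 did (Ctsd, Lamp1, Glb1, Gaa, Atg3, Atg5 and Atg7), and of the 3 MiT/TFE factors 0 did. These counts describe letters in fixed windows and were not tested.

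Stretches of these windows are printed for the 4 genes with the core that rose and, as a contrast, for Ctsd and Lamp1, which hold the core and did not rise. Each reads 5′ to 3′ on the strand of its gene, and capitals mark the core. They lie at chr2:164833673-164833772 (plus strand), chr8:3500419-3500518 (plus), chr19:4855065-4855164 (plus), chr13:64370721-64370770 (minus), chr7:142387858-142387957 (minus) and chr8:13159061-13159160 (plus) of GRCm38.p6. The stretches of Ctsa, Mcoln1, Ctsf and Lamp1 are the 100 bases that end just before the start of transcription, that of Ctsd runs from 130 to 31 bases before it, and that of Ctsl is the first 50 bases of its window, which opens 250 bases before it.
Ctsa: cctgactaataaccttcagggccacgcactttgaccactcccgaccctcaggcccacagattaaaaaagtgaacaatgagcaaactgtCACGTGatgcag
Mcoln1: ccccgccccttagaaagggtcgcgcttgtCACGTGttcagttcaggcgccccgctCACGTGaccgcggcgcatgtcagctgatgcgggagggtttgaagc
Ctsf: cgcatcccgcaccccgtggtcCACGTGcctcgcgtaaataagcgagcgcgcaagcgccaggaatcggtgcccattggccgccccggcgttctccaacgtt
Ctsl: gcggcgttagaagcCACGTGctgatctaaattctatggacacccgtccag
Ctsd: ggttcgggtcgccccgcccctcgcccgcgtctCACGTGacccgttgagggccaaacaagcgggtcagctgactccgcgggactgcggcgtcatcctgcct
Lamp1: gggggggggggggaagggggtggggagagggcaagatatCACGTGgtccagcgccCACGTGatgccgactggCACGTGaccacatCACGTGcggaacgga
The stretch of Lamp1 holds 4 cores and that of Mcoln1 holds 2. The core of Ctsa lies 12 bases before the start, and a further one lies 6 bases into the transcript. In Ctsl the core lies 236 bases before the start, and in Ctsd, beside the one printed, a further core lies 245 bases before it.

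**Figure D3:**
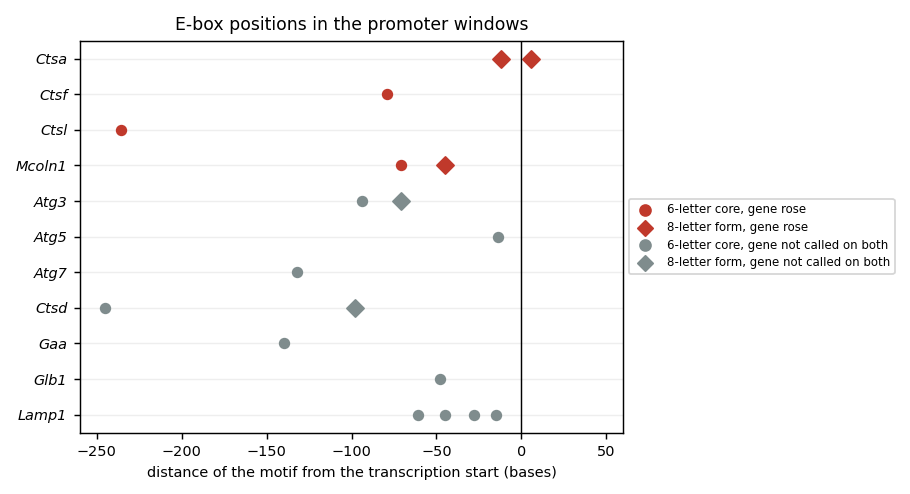
Position of each E-box core (first base, in bases from the start of transcription, horizontal axis) in the windows of the 11 members that hold one, with genes that rose in red and genes not called on both scalings in grey. Diamonds mark the 8-letter form, found in Ctsa, Mcoln1, Atg3 and Ctsd, and circles the core alone. Cores of genes that rose lie between -236 and 6, and those of the others between -245 and -14.

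Of the 12 lysosomal proteases 6 rose (50%, against 22.4% of all genes) and 0 fell. Ctsf, a cysteine cathepsin, had 8.99 and 9.19 in KrasD12 A and B, against 8.12 and 8.15 in WT A and B. Both KrasD12 values were higher than both WT values, and Ctsf rose by 0.955 ± 0.09 (limma adjusted p = 0.00109), or 0.835 after quantile normalization. Ctsk, the collagen-degrading cathepsin of osteoclasts and of activated lung fibroblasts, had 8.61 and 8.53 in KrasD12, against 7.78 and 7.90 in WT. The groups lay apart, with a rise of 0.73 ± 0.08 (adjusted p = 0.00146) that was 0.58 after quantile normalization. Ctsc, which activates the serine proteases of immune cells, stood at 7.82 in both KrasD12 samples, against 7.19 and 7.39 in WT (rise of 0.53 ± 0.09, adjusted p = 0.00497), or 0.31 after quantile normalization, and with the columns centred on their medians it was 0.185 and not called (adjusted p = 0.126).

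Ctsl, a broad cysteine endopeptidase, had 11.84 and 11.87 in KrasD12, against 11.36 in both WT samples. It rose by 0.495 ± 0.065 (limma adjusted p = 0.00245), and by 0.63 after quantile normalization, but stood at 0.15 and was not called under median centring (adjusted p = 0.121). Genes of like mean had a median deposited difference of -0.145. Ctsa, which also protects beta-galactosidase and neuraminidase in a complex, had 11.04 and 11.03 in KrasD12, against 10.58 and 10.69 in WT (rise of 0.40 ± 0.07, adjusted p = 0.00643), but under median centring it stood at 0.055 and was not called (adjusted p = 0.574). Tpp1, a serine protease that removes tripeptides, had 11.11 and 11.12 in KrasD12, against 10.87 and 10.88 in WT. This small gap with almost no spread was a rise of 0.24 ± 0.06 (limma adjusted p = 0.0231). Under median centring Tpp1 stood at -0.105. Genes of the mean level of Ctsa and Tpp1 had a median deposited difference of -0.045, and centring lowers every difference by the same amount.

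The other 6 proteases were not called on both scalings. Ctsd, the main aspartic protease of the lysosome, had 12.03 and 12.08 in KrasD12, against 12.43 and 12.46 in WT. It was lower on the deposited values (-0.39 ± 0.07, limma adjusted p = 0.00534), but genes of like mean were also lower there (-0.1425), and after quantile normalization the difference was -0.205 (adjusted p = 0.0602). Ctsz stood at 10.99 and 11.02 in KrasD12, against 11.25 and 11.22 in WT, and was likewise called lower on the deposited values only (-0.23, or -0.12 after quantile normalization). Ctsb, a cysteine cathepsin of nearly all tissues, had 12.09 and 12.19 in KrasD12, against 12.35 and 12.33 in WT, and its difference was -0.20 (adjusted p = 0.0557), or 0.015 after quantile normalization. Among the less bright ones, Ctsh differed by 0.205 (-0.15 (-0.1525) after quantile normalization) and Ctso by 0.055 (-0.125). Ctss, a cathepsin of antigen-presenting cells, lay under the dim level in all samples, at 4.72 and 5.09 in KrasD12, against 4.33 and 4.56 in WT. Thus 2 cathepsins were lower and 7 of the 12 proteases higher on the deposited values, where 50.1% of all genes were higher and 11.9% lower. After quantile normalization alone 6 were higher and 0 lower, where the shares of all genes were 22.5% and 24.4%. The 7 include the dim Ctss (limma adjusted p = 0.0407), which stood at 0.05 (0.0487) and was not called after quantile normalization.

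Of the 4 proteins of the lysosomal membrane, 1 rose (25%, close to the 22.4% of all genes) and 0 fell (against 11.5%). Mcoln1, the calcium channel through which lysosomes signal to the calcineurin phosphatase, had 10.02 and 10.04 in KrasD12 A and B, against 9.10 and 9.12 in WT A and B. The groups lay far apart, with a rise of 0.92 ± 0.065 (limma adjusted p = 0.000669), or 0.88 after quantile normalization. Lamp1 and Lamp2, the heavily glycosylated proteins that line the lysosomal membrane, differed little. Lamp1 had 12.10 and 12.05 in KrasD12, against 12.25 in both WT samples (difference -0.175, adjusted p = 0.0651), and stood at 0.06 (0.0594) after quantile normalization. Lamp2 had 11.43 and 11.40 in KrasD12, against 11.36 and 11.39 in WT (difference 0.04, adjusted p = 0.618). Cd63, a tetraspanin of late endosomes and secreted vesicles, had 10.57 and 10.44 in KrasD12, against 10.26 and 10.31 in WT. Its groups did not overlap, yet it passed after quantile normalization only (0.22, adjusted p = 0.0526, against 0.26 and adjusted p = 0.032).

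Of the 8 glycosidases, lipase and activator genes, 2 rose (25%, close to the 22.4% of all genes) and 0 fell (against 11.5%). Neu1, the neuraminidase that trims sialic acid, had 8.15 and 8.23 in KrasD12, against 7.30 and 7.37 in WT. All KrasD12 values were above all WT values, and Neu1 rose by 0.855 ± 0.07 (limma adjusted p = 0.000888), or 0.66 after quantile normalization. Grn, which encodes the growth factor and lysosomal protein progranulin, had 11.96 and 12.01 in KrasD12, against 11.76 and 11.70 in WT. It rose by 0.255 ± 0.07 (limma adjusted p = 0.0232) and by 0.45 after quantile normalization, but stood at -0.09 when the columns were centred on their medians. Genes of like mean had a median deposited difference of -0.145, and centring lowers these by the same amount as Grn. The other 6 covered -0.135 to 0.11. Glb1, the beta-galactosidase assayed as a sign of senescence, had 9.01 and 9.14 in KrasD12, against 9.20 and 9.22 in WT, so that its KrasD12 values were the lower ones by a small gap (difference -0.135 ± 0.08, adjusted p = 0.171). Hexa, a subunit of hexosaminidase, was called after quantile normalization only (0.24, against 0.11 on the deposited values). Gaa, the acid alpha-glucosidase, differed by 0.06, Lipa, the acid lipase, by 0.085, Psap, the precursor of the saposins, by 0.04 and Man2b1, an alpha-mannosidase, by 0.01.

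**Figure D4:**
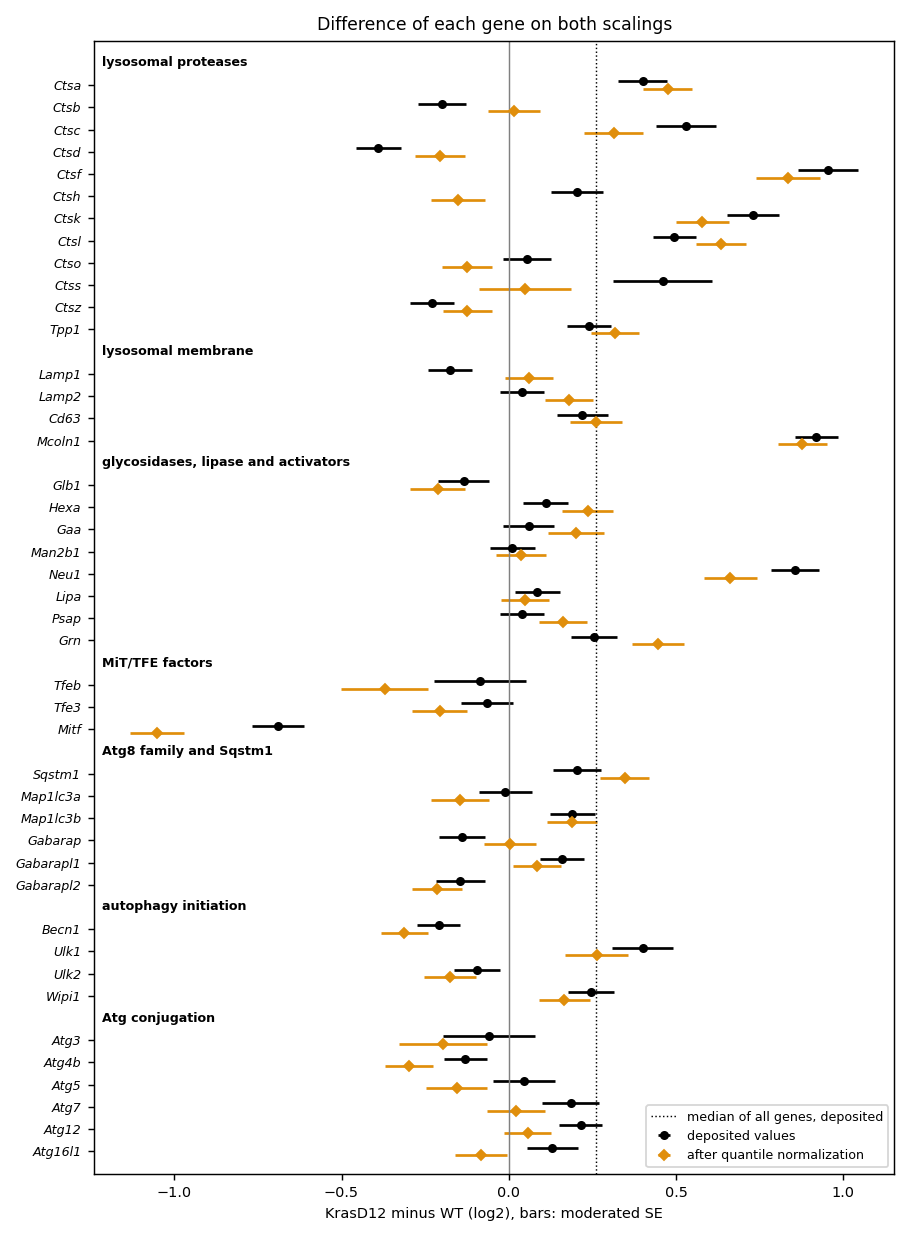
Difference KrasD12 minus WT (log2, horizontal axis) of each gene with its moderated SE, on the deposited values (black circles) and after quantile normalization (orange diamonds). The dotted line is the deposited median of all genes, 0.26. Quantile normalization moved bright genes such as Ctsl, Grn and Sqstm1 to the right and dimmer ones such as Mitf, Ctsh and Ctss to the left.

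Among the autophagy genes, the 6 members of the group formed by Sqstm1 and the Atg8 family, which coats the growing membrane and binds cargo receptors, showed 0 rises and 0 falls. Over all genes 22.4% rose and 11.5% fell. Sqstm1, the receptor p62, had 11.61 and 11.60 in KrasD12 A and B, against 11.35 and 11.45 in WT A and B. It passed after quantile normalization (0.35, limma adjusted p = 0.00948) and just missed on the deposited values (0.205, adjusted p = 0.0514). Map1lc3b, the LC3 protein used to count autophagosomes, had 10.10 and 10.17 in KrasD12, against 9.94 and 9.95 in WT (difference 0.19, adjusted p = 0.0556). A further row of Map1lc3b had 9.71 and 9.82 in KrasD12, against 9.81 and 9.83 in WT, so that the groups overlapped there. Gabarapl1 differed by 0.16, Map1lc3a by -0.01, Gabarap by -0.14 and Gabarapl2 by -0.145, with adjusted p from 0.0819 to 0.919. A further row of Gabarapl2 also overlapped, with 4.98 and 5.77 in KrasD12 against 5.70 and 5.49 in WT.

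Of the 4 genes that start autophagy, 1 fell (25%, against 11.5% of all genes) and 0 rose (against 22.4%). Becn1, a subunit of the lipid kinase complex that marks the site of a new autophagosome, had 8.65 and 8.63 in KrasD12, against 8.84 and 8.86 in WT. The samples of each group nearly coincided, and Becn1 fell by 0.21 ± 0.065 (limma adjusted p = 0.036), or by 0.31 after quantile normalization. Ulk1, the kinase at the head of the pathway, had 8.52 and 8.61 in KrasD12, against 8.26 and 8.07 in WT. Its KrasD12 values were the higher ones (difference 0.40 ± 0.09, adjusted p = 0.0133), but the quantile value of 0.26 did not pass (adjusted p = 0.0576). Wipi1, a reader of the lipid mark, was likewise called on the deposited values only (0.245, adjusted p = 0.0265, with 9.17 and 9.22 in KrasD12 against 8.98 and 8.92 in WT). Ulk2, the kinase related to Ulk1, stood at -0.095.

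The 6 genes of the conjugation machinery, which joins Atg8 proteins to the membrane lipid and Atg12 to Atg5, showed 0 rises and 0 falls on both scalings. The shares over all genes were 22.4% and 11.5%. Their deposited differences ran from -0.13 for Atg4b, the protease that primes Atg8 proteins, to 0.215 for Atg12, the ubiquitin-like partner of Atg5. Atg12 stood at 8.25 and 8.26 in KrasD12, against 8.04 in both WT samples, and was called on the deposited values only (limma adjusted p = 0.0327, 0.06 (0.0562) after quantile normalization). Atg4b stood at 8.02 in both KrasD12 samples, against 8.14 and 8.16 in WT, and was called after quantile normalization only (-0.30, adjusted p = 0.015). Atg3, the E2-like enzyme, had the widest spread of the 6, with 8.53 and 8.14 in KrasD12 on either side of 8.35 and 8.44 in WT. Atg5 differed by 0.045, Atg7, the E1-like enzyme, by 0.185 and Atg16l1, the scaffold of the complex, by 0.13.

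A further 160 genes of the same pathways were listed, of which 152 had a row, and 43 of these rose (28.3%, against 22.4% of all genes) and 18 fell (11.8%, against 11.5%). After median centring 15 rose and 30 fell. Among 23 other lysosomal membrane proteins 9 rose and 1 fell. Cln3, the membrane protein lost in juvenile Batten disease, had 8.22 and 8.24 in KrasD12 A and B, against 7.16 and 7.21 in WT A and B. Its rise of 1.045 ± 0.07 (limma adjusted p = 0.000555), or 0.85 after quantile normalization, was the largest among the 152. Atp13a2, a polyamine exporter, rose by 0.645 and Laptm4b by 0.64, while Ostm1, the partner of the chloride transporter Clcn7, fell by 0.23. Among 31 other hydrolases 7 rose and 2 fell. Ppt1, which removes palmitate from proteins, had 10.02 and 10.03 in KrasD12, against 9.28 and 9.26 in WT, and rose by 0.755. Dnase2a, the acid nuclease, rose by 0.84 and Ctsw by 0.90, the last with a mean under the dim level. In the opposite direction, Scpep1, a serine carboxypeptidase related to Ctsa, had 10.89 and 10.96 in KrasD12, against 11.74 in both WT samples, and fell by 0.815. Fuca1, the fucosidase, fell by 0.41.

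The subunits and helpers of the V-ATPase, the pump that acidifies lysosomes, showed 2 rises and 4 falls among 19. These were 10.5% and 21.1%, against 22.4% and 11.5% of all genes. Atp6v0b rose by 0.355 and Atp6v1b2 by 0.215, but when the columns were centred on their medians Atp6v0b stood at 0.01 and Atp6v1b2 at -0.13, and neither was called. Atp6ap1, Atp6v0a1, Atp6v0a2 and Atp6v0e fell by 0.39, 0.27, 0.24 and 0.23. Among 9 genes that sort enzymes to the lysosome 3 rose (33.3%, against 22.4% of all genes) and 0 fell (against 11.5%). These were Nagpa, which uncovers the mannose 6-phosphate tag (0.835), the adaptor gene Gga2 (0.545, or 0.20 and not called after median centring) and the receptor gene Igf2r (0.265, or -0.08 after median centring). Of 3 cathepsin inhibitors, Cst3, the secreted cystatin C, had 11.72 and 11.75 in KrasD12 against 12.15 and 12.20 in WT and fell by 0.44, whereas Cstb rose by 0.43 (0.085 and not called after median centring) and Cst6 was not called.

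Of 25 genes of mTORC1 and nutrient sensing at the lysosome, 9 rose (36%, against 22.4% of all genes) and 4 fell (16%, against 11.5%). Depdc5, an inhibitor of mTORC1, rose by 0.59, Fnip1, a partner of folliculin, by 0.55 and the kinase gene Mtor itself by 0.54, of which Fnip1 (0.205) and Mtor (0.195) were not called after median centring. Flcn, which encodes folliculin and was picked after its values were seen, rose by 0.49. It had 9.59 and 9.65 in KrasD12, against 9.10 and 9.16 in WT. Median centring lowers every difference by the same amount, and so puts Flcn below Fnip1 and Mtor. Rragb, a Rag GTPase, fell by 0.63, Lamtor3 and Lamtor2, subunits of the lysosomal anchor of the Rag proteins, by 0.315 and 0.24, and Prkaa2, a catalytic subunit of AMPK, by 0.27.

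The 29 other core autophagy genes held 8 rises (27.6%) and 3 falls (10.3%), close to the shares of all genes. Atg14, which directs the complex of Becn1 to autophagosomes, had 7.53 and 7.52 in KrasD12, against 6.85 in both WT samples, and rose by 0.675. Wdr45 rose by 0.605 and Atg2a, a lipid transfer protein, by 0.54 (0.195 and not called after median centring), while Atg16l2, Atg10 and Vmp1 fell by 0.505, 0.45 and 0.34. Among 13 other autophagy receptors and adaptors 4 rose (30.8%, against 22.4% of all genes) and 3 fell (23.1%, against 11.5%). Calcoco1 rose by 0.715, Nbr1, a receptor related to Sqstm1, by 0.47, Bnip3l, a receptor for mitochondria, by 0.465 and Wdfy3, an adaptor for protein aggregates, by 0.395. After median centring Nbr1 stood at 0.125 and Bnip3l at 0.12, and neither was called. Centring lowers every difference by the same amount, so Wdfy3, with a smaller deposited rise, lay below both. Fundc1, Sec62 and Ncoa4, receptors for mitochondria, endoplasmic reticulum and ferritin, fell by 0.495, 0.39 and 0.285. Bnip3l, Wdfy3 and Ncoa4 had 2 rows each, of which the brighter was used. With the rows of each gene averaged, 43 of the further genes rose and 17 fell, against 43 and 18. In the further genes as in the members, none was called on both scalings without WT A or WT B. There limma called no gene at all on the deposited values, so this outcome was fixed. Fewer further genes rose and fell without KrasD12 A or KrasD12 B than with all 4 samples.

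**Figure D5:**
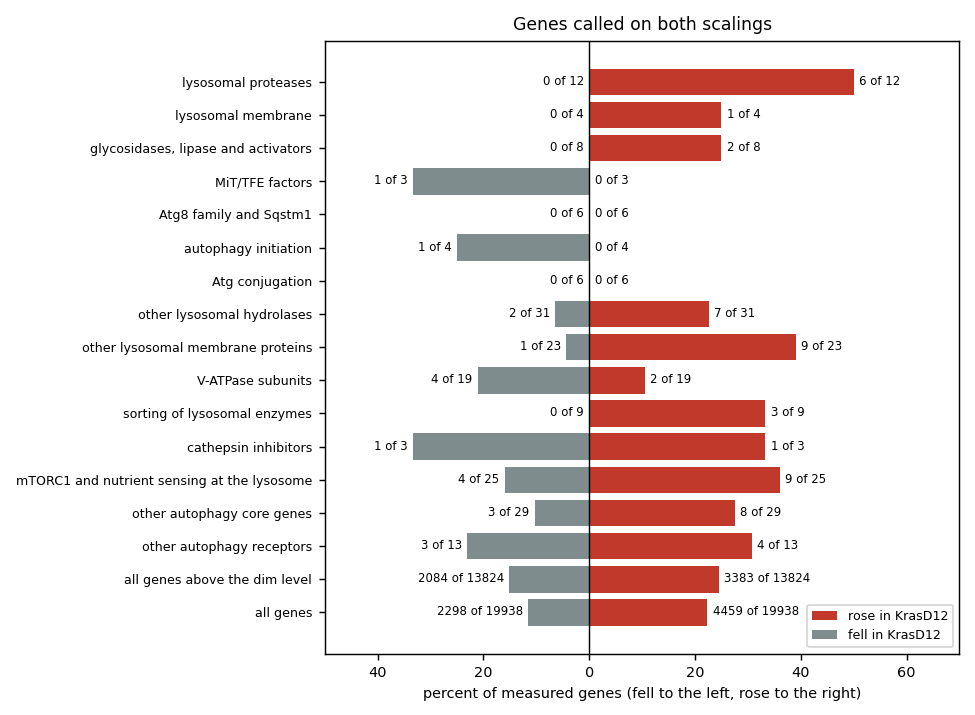
Percent of measured genes that rose (red, to the right) and fell (grey, to the left) in KrasD12 on both scalings, for the 7 groups of members, the 8 lists of further genes, all genes above the dim level and all genes, with the counts printed at the bars. The lysosomal proteases reach 6 of 12, the Atg8 and conjugation groups hold 0 in either direction, and the V-ATPase subunits lean to the left.

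Markers of the labelled cell type were present, as 9 of 9 measured fibroblast markers lay above the dim level in both groups, with a log2 of their summed linear values of 14.88 and 14.90 in KrasD12 A and B, against 15.10 and 15.09 in WT A and B. Of the 9, Pdgfra rose by 0.26, or by 0.46 after quantile normalization, while genes of like mean had a median deposited difference of -0.145. Col1a1, Pdgfrb and Thy1 fell by 0.595, 0.495 and 0.31. For this and the following marker counts, 22.4% of all genes rose and 11.5% fell. Because macrophages are rich in lysosomes, 12 of their markers were read beside these results. In KrasD12 5 of the 12 had a mean above the dim level, led by Cd68 at 6.595, against 4 in WT, led by Cd14 at 6.235, while Adgre1, Ptprc and Itgam lay under it in both groups. For these 12 the log2 of the sum was 8.83 and 8.76 in KrasD12 A and B, against 8.62 and 8.70 in WT A and B. Of the 12, 3 rose (Aif1, Fcer1g and Adgre1) and 3 fell (Lyz2, Cd14 and Csf1r), and over all samples the means of the 3 that rose lay under the dim level and those of the 3 that fell above it. Lyz2, the macrophage lysozyme gene, stood furthest apart, with 4.56 and 4.70 in KrasD12 against 6.01 and 6.20 in WT. Of 7 smooth-muscle markers 5 fell (Actg2, Acta2, Cnn1, Myh11 and Tagln), with differences of -1.925 to -1.485. The log2 of the sum of the 7 was 11.26 and 11.09 in KrasD12, against 12.66 and 12.58 in WT. The growth protocol names myofibroblast cultures, and whether these markers came from the myofibroblasts or from other cells was not tested. Of 8 epithelial markers 2 rose (Sftpb and, with a mean under the dim level, Sftpc) and 0 fell, with a log2 sum of 8.59 and 8.71 in KrasD12 against 8.17 and 8.15 in WT, and of 7 endothelial markers 0 rose and 0 fell, with a log2 sum of 8.39 and 8.41 in KrasD12 against 8.11 and 7.99 in WT. The sums rest on deposited values. There all genes had a median difference of 0.385 at a mean of 4 to 5 and 0.39 at 5 to 6. After quantile normalization the median difference was 0.12 for macrophage, 0.17 for epithelial, -0.03 for endothelial and -1.59 for smooth-muscle markers. The part of these cell types in the differences of the lysosomal genes was not tested.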

How the data were processed

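Total RNA of 4 samples was hybridised with a biotin label to Affymetrix mouse arrays, per the labels' protocols. The deposited log2 expression values, 1 per array row and sample, were used as they stand. Per the submitters' processing notes the authors used the Transcriptome Analysis Console. How background was corrected and columns were normalized is not given in the sources used here. Of 28944 rows, 21789 had 1 gene symbol, 1621 several and 5534 none, and only the first were used. Of these, 21698 were matched by gene ID to current symbols (GRCm38.p6 table), and 999 genes had more than 1 row.

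All 19938 genes entered 1 linear model with a term for genotype, moderated by eBayes (limma 3.58.1, R 4.3.3). Its p-values are two-sided, were adjusted by Benjamini-Hochberg over all genes and were read at a threshold of 0.05. With 2 samples per group the fit has 2 residual degrees of freedom. The single linear fit was tested on simulated data with known changes. These data held no shift between columns and were not quantile normalized, so the rule of 2 scalings was not tested by them. Tables and plots were made with pandas 2.3.3, Python 3.11.15 and matplotlib 3.10.9.

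The members and lists were chosen with earlier results of these data known, so counts and medians of lists carry no test. All members were named, and of each further list up to 3 of the largest rises and falls, every gene of counts up to 5, and 1 other gene marked as such. Listed genes without a row of 1 symbol were not analysed here. The alternatives were quantile normalization, median centring, the replicate letter as a block, a dim filter, a variance trend or a robust prior in eBayes, averaging of the rows of each gene, and leaving out each sample.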

Additional observations from a re-analysis of the deposited data

How the results depend on the processing

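Of the 43 members, 9 rose and 2 fell. With each column centred on its median in place of the deposited values, 4 rose and 3 fell, and with the eBayes trend 15 rose and 5 fell. Leaving out 1 sample gave 0 to 4 rises and 0 falls. Each such fit leaves a lone sample that is assumed to vary like the other group. The letters A and B did not pair the samples (r = 0.0132 across genes), and with the letter as a replicate block 8 rose and 1 fell, with Grn (adjusted p = 0.0565) and Becn1 (adjusted p = 0.0617) no longer called. On the deposited scale alone, 13 members were higher and 4 lower. These counts were 4 and 23 after median centring. That fit called 10231 of all 19938 genes in either direction, against 12372 in the main fit. Their split by direction is not given here. The lower count was 2 with the replicate block and 8 with the trend. Of the further genes 43 rose and 18 fell, against 15 and 30 after centring and 0 to 24 and 0 to 6 with 1 sample left out, and 31 were lower after quantile normalization alone. The members' median difference of 0.085 was 0.0487 after quantile normalization, -0.26 after centring, and 0.06 to 0.135 with 1 sample left out. The members had a median mean level of 9.14. As deposited, all genes with a mean of 9 to 10 had a median difference of 0.065, and those of 11 to 12 of -0.145. Centring lowers every difference by the same amount. The cause of these changes was not tested.

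Under quantile normalization alone the sign turned for Ctsb (0.015), Ctsh (-0.1525), Ctso (-0.125), Lamp1 (0.0594), Gabarap (0.0038), Atg5 (-0.155) and Atg16l1 (-0.0825). Under median centring it turned for Ctsh (-0.14), Ctso (-0.29), Tpp1 (-0.105), Lamp2 (-0.305), Cd63 (-0.125), Hexa (-0.235), Gaa (-0.285), Man2b1 (-0.335), Lipa (-0.26), Psap (-0.305), Grn (-0.09), Sqstm1 (-0.14), Map1lc3b (-0.155), Gabarapl1 (-0.185), Wipi1 (-0.10), Atg5 (-0.30), Atg7 (-0.16), Atg12 (-0.13), Atg16l1 (-0.215), Atp6v1b2 (-0.13) and Igf2r (-0.08). With 1 sample left out it turned for Man2b1 (-0.02 to 0.04), Tfeb (-0.25 to 0.08), Map1lc3a (-0.085 to 0.065), Atg3 (-0.255 to 0.135) and Atg5 (-0.065 to 0.155). The number of arrays, 2 per group, limits the precision of every value.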
